A study of Homo sapiens with 9 samples.

Results

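Genes that work in the G2 phase and in mitosis were followed in the established human glioblastoma line LN229 before and after the addition of sodium formate, a salt whose carbon enters folate metabolism. The set is a list of 50 gene symbols given by name; its rule uses no measured value, but the list was drawn up with earlier results of these data known, so its counts are a description. All 50 symbols matched 1 gene each of the 23727 genes in the deposited count table, and all 50 were among the 15273 genes tested after the filter on low counts. Poly-adenylated RNA was sequenced from 3 groups of 3 libraries, which were untreated cells taken at 0 h, cells given 500 µM formate for 8 h and cells given 500 µM formate for 24 h. All cells grew in medium with 10% fetal bovine serum, 17 mM glucose and 2 mM glutamine, and only RNA with an integrity number above 9 was used. LN229 is 1 line, so all groups share its genotype, and 1 label spells its name with another digit than the growth protocol does. The only untreated libraries are those of 0 h, so formate and the further 8 or 24 h in culture cannot be told apart in these comparisons. The labels do not say that replicates were separate cultures, and p-values then measure only the spread between these libraries, which may be technical.

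Cells pass from DNA replication through G2 into mitosis when cyclin B and its kinase CDK1 become active. Transcripts of the mitotic machinery build up in G2 under the transcription factors B-MYB and FOXM1 and the MuvB complex, and they are held low in resting cells by the DREAM complex. MuvB binds promoters at a short element called the cell cycle genes homology region, and the factor NF-Y binds CCAAT boxes a little further upstream. In dividing tumour cells this group of transcripts is widely used as a readout of proliferation. In RNA from a whole culture, fewer cells in G2 and mitosis and less RNA per such cell cannot be told apart.

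The promoters of the members are shown first, since the members share sequence features that the list did not use. RefSeq windows on GRCh38.p14, each from 250 bases before to 50 bases after a transcription start, were matched by symbol for 41 of the 50 members (53 windows). No window was matched for AURKA, BIRC5, FAM83D, FOXM1, PBK, RACGAP1, TPX2, TROAP and UBE2C. The homology region was searched as TTTGAA and as its variant TTTAAA, and the NF-Y box as CCAAT, each on both strands. TTTAAA reads the same on both strands, and the pairs of motifs were allowed to overlap. The 6 promoters below belong to the members with the largest falls at 24 h among those whose windows held a homology region match and at least 2 CCAAT boxes. They are the 250 bases before the start, written 5′ to 3′ in the direction of the gene, and capitals mark the matches, where TTCAAA and ATTGG are the motifs on the other strand. They lie at chr5:69166900-69167149 (plus strand, CCNB1), chr1:43358731-43358980 (plus strand, CDC20), chr17:68035485-68035734 (plus strand, KPNA2), chr5:160421605-160421854 (plus strand, PTTG1), chr14:54396757-54397006 (plus strand, CDKN3) and chr14:55191586-55191835 (minus strand, DLGAP5).
CCNB1: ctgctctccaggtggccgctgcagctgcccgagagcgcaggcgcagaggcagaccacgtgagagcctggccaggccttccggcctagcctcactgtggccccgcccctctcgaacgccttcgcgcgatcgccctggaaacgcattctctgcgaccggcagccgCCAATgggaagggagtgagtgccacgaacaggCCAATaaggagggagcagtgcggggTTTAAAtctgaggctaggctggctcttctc
CDC20: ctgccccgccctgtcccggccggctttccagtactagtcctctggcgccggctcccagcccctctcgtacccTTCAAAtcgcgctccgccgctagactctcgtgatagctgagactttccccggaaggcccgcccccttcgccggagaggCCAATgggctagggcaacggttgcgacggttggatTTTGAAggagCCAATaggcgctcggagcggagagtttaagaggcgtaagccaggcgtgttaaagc
KPNA2: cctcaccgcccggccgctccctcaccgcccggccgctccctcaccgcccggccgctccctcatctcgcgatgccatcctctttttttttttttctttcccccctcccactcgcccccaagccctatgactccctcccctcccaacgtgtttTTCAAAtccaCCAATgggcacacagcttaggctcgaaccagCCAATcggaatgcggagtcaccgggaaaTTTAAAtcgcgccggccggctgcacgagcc
PTTG1: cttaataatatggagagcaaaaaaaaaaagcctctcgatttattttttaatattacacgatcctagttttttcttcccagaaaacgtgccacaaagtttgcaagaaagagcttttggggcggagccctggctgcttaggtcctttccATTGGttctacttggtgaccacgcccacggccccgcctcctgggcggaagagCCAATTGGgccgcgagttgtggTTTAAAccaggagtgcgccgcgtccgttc
CDKN3: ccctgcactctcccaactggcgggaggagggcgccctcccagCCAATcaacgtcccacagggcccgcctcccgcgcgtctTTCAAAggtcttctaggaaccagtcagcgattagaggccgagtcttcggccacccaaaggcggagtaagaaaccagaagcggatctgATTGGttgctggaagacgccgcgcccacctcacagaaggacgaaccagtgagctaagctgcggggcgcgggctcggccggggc
DLGAP5: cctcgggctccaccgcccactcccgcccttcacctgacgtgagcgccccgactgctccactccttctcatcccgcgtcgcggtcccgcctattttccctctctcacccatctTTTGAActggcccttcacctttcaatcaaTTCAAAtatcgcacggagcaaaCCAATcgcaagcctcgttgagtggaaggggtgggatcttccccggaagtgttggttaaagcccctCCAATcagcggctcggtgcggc

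In CCNB1, KPNA2 and PTTG1 the printed promoters share 1 layout. A TTTAAA begins 30 bases before the start in CCNB1, 30 bases before it in KPNA2 and 29 bases before it in PTTG1. The nearest CCAAT boxes begin 55 and 87 bases before the start in CCNB1 and 58 and 89 bases before it in KPNA2. PTTG1 has boxes on both strands that overlap, 48 and 51 bases before the start, and another at 103 bases. CDC20 has a TTTGAA 65 bases before the start between boxes at 55 and 100 bases, and a further TTTGAA at 178 bases, and KPNA2 has a TTTGAA at 99 bases. In CDKN3 and DLGAP5 the printed TTTGAA matches lie further out, at 170 bases in CDKN3 and at 109 and 138 bases in DLGAP5.

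Over the 41 members with a window, 33 (80.5%) held TTTGAA or TTTAAA, against 21.6% of the 11151 tested genes with a window, members included, and 24% of all 35116 windows. At least 2 CCAAT boxes stood in windows of 22 members (53.7%), against 16.5% of tested genes and 10.8% of all windows. Both features together stood in 21 members (51.2%), against 3.14% of tested genes and 2.73% of all windows. A TTTGAA that began within 60 bases before the start, a limit chosen after seeing the data, was found in 17 members (41.5%), 2.71% of tested genes and 2.98% of all windows. A match describes letters in a window and is neither a bound site nor a cause. Among members, the median log2 fold change at 24 h against 0 h was -0.54 for the 21 with both features, -0.44 for the 12 with a homology region match and fewer than 2 boxes, and -0.46 for the 7 with neither. The remaining gene with a window, NEK2, had 2 or more boxes and no homology region match, and was at -0.68.

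**Figure D1:**
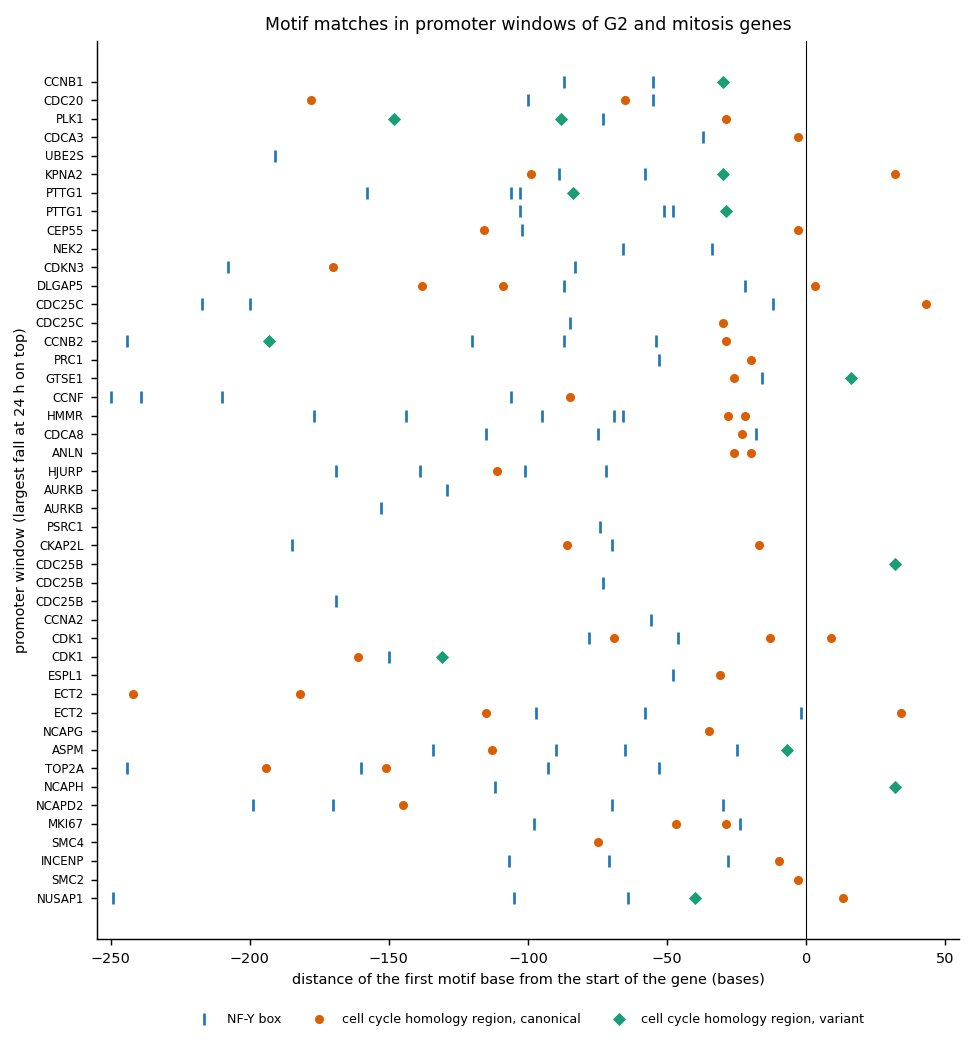
Positions of motif matches in promoter windows of the members, with the distance of the first motif base from the start of the gene in bases on the x axis and 1 line per window, the largest fall at 24 h on top. The 45 of 53 windows with a match are drawn, bars are NF-Y boxes, circles the canonical homology region and diamonds its variant. CCNB1, for example, has boxes 55 and 87 bases and the variant 30 bases before the start.

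The libraries held between 22222298 and 25848242 counts, and counts were low only for NUSAP1 (4 to 23 per library) and PRC1 (181 to 375). Untreated replicate 1 and the 8 h replicate 1 stood apart from the other libraries. On the first principal component of the 500 most variable genes (70.8% of their variance) they were at -23.5 and -21.6, while the other libraries of 0 h and 8 h lay between -3.41 and -0.798 and those of 24 h were at 9.56 or above. The share of counts from mitochondrial genes was 0.865% to 1.38% at 0 h, 0.725% to 1.43% at 8 h and 1.56% to 1.81% at 24 h, so it was higher in all libraries of 24 h, and its part in the results was not tested. Results are therefore also given without untreated replicate 1 or without replicate 1 of every group.

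Markers of the labelled cell type were partly present. VIM, NES, CD44 and CDH2, markers of glioma and neural stem cells, averaged 4903, 949, 999 and 293 CPM at 0 h (CPM are counts put on 1 scale for all libraries with TMM factors), and SOX2 was at 71.8 to 88.6 CPM, while GFAP, the defining filament of astrocytes, was at 0.177 to 0.330 CPM. FABP7 and S100B, also on the astroglial list of 9, were higher at 24 h. FABP7 went from 46.6 to 111 CPM (adjusted p = 0.0167 by edgeR's quasi-likelihood test) and S100B from 130.3 to 340 CPM (adjusted p = 0.0460). Other cell types were checked beside them. All 4 leukocyte markers measured summed to 0.308 to 0.708 CPM at 0 h and 0.456 to 0.550 CPM at 24 h, and none was tested. The 3 endothelial markers measured summed to 0.424 to 0.707 CPM at 0 h and 1.16 to 1.87 CPM at 24 h, with VWF called higher. Leukocyte and endothelial transcripts were thus close to the floor. Of the 4 epithelial markers, EPCAM and CDH1 were at 0 in all untreated libraries, where 3 counts are 0.116 to 0.141 CPM, and the list summed to 140 to 203 CPM at 0 h and 109 to 126 CPM at 24 h, nearly all of it keratin transcripts. MOG and MBP, markers of oligodendrocytes, were under 1 CPM in every library. The 3 neuronal markers measured summed to 76.4 to 128 CPM at 0 h and 154 to 167 CPM at 24 h, with SNAP25 and MAP2 called higher. The part of these marker lists in the results was not tested.

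Transcripts of G2 and mitosis were lower after 24 h of formate than at 0 h. The summed level of the 50 members was 17215, 15223 and 15420 CPM in untreated replicates 1, 2 and 3, and 13268, 11296 and 9305 CPM in the same numbers at 24 h. The 24 h libraries lay below every untreated library and at 70.8% ± 12.4 (SD, n = 3) of the untreated mean. At 8 h the sum was 17644, 15524 and 15213 CPM, which overlaps the untreated range. Of the 50 members, 49 had a lower fitted level at 24 h than at 0 h, with a median log2 fold change of -0.54 against 0.01 over all tested genes. Falls passed the threshold for 21 members and no rise did, with edgeR's quasi-likelihood F statistic and p-values adjusted over all genes (Benjamini-Hochberg, 0.05). Unadjusted p under 0.05 with a lower level was found in 39 members and in 12.6% of tested genes. Among all tested genes 1.77% were called lower and 2.47% higher. None of the 50 fell by as much as 2-fold, and the largest falls were those of UBE2C and CCNB1, at -0.92 and -0.91.

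The number of calls depended on how libraries were combined, while the median stayed below 0 in every setting run. With the replicate number as a block, 40 members were called lower, among them all 21, against 11.6% of all tested genes, and none higher. The block assumes that the numbers pair the libraries, which was not shown between 0 h and 24 h. In 37 members all 24 h libraries were below all untreated ones, against 14.4% of tested genes. Without untreated replicate 1 there were 13 member calls, and without the 8 h replicate 3, which enters only the estimate of spread, 12. Without the 24 h replicate 2 there were none, nor without the 24 h replicate 3, and in those fits no gene at all was called while 2550 and 2563 genes had an unadjusted p under 0.05. A fit of the 6 libraries of 0 h and 24 h alone called 3 members, DESeq2 called 33, and leaving out replicate 1 of every group gave 43 calls. Over all tested genes, 3687 were called with the block, 124 in the fit of 6 libraries and 2616 without replicate 1 of every group. With the block and any 1 library left out, 31 to 49 members and 2213 to 3816 genes were called. Member counts are to be read beside these, since calls over all genes also moved. The median of the members lay between -0.67 and -0.43 when any 1 library was left out without the block.

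**Figure D2:**
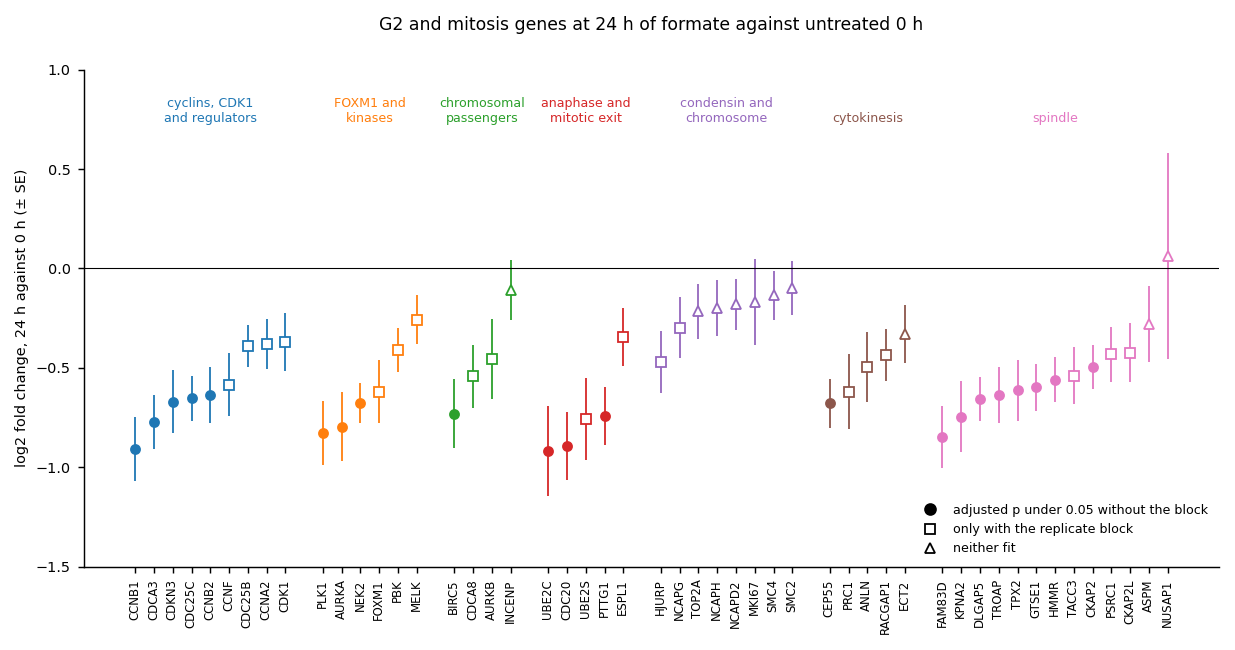
Fitted log2 fold change of each of the 50 members at 24 h of formate against untreated 0 h, grouped by role, with bars of 1 standard error (3 libraries a group). Filled circles passed the threshold without the block (21 members), open squares only with the replicate block (19) and open triangles in neither fit (10); all but NUSAP1 lie below 0.

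Cyclins, CDK1 and their regulators drive entry into mitosis. All 9 were lower at 24 h with no overlap between the groups, 5 passed the test and all 9 passed with the block, and the median was -0.64. CCNB1 encodes cyclin B1, the activating subunit of CDK1 at mitotic entry (ENSG00000134057, chromosome 5, 69167010 to 69178245, plus strand, GENCODE 29 on GRCh38). Its level was 612, 477 and 439 CPM at 0 h, 488, 471 and 451 CPM at 8 h, and 334, 255 and 225 CPM at 24 h. The 24 h libraries lay well below the others, while 8 h and 0 h overlapped. CCNB1 fell by 46.7% from 0 h to 24 h (log2 fold change -0.91, standard error 0.16, adjusted p = 0.0215). CDK1 encodes the kinase itself (ENSG00000170312, chromosome 10, 60778331 to 60794852, plus strand) and moved least of this role. Its level was 309, 217 and 228 CPM at 0 h, 282, 224 and 259 CPM at 8 h, and 210.4, 198 and 174 CPM at 24 h. The highest 24 h library was just under the lowest untreated one, and the fold change of -0.37 (standard error 0.15) passed only with the block (adjusted p 0.148 without and 0.0242 with it).

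Between those ends stood CDCA3, CDKN3, CDC25C and CCNB2, which also passed without the block. CDCA3, which takes part in the destruction of the CDK1 inhibitor WEE1, went from 176 ± 27.4 to 103 ± 12.0 CPM (SD, n = 3; adjusted p = 0.0203). CDC25C is a phosphatase that activates CDK1, and its fold change was -0.65 (standard error 0.11, adjusted p = 0.0199). CDKN3, a phosphatase that acts on CDK kinases, had a fold change of -0.67 and CCNB2, the second B-type cyclin, of -0.64. CCNA2, CCNF and CDC25B passed only with the block, at -0.38, -0.58 and -0.39. CCNA2 encodes cyclin A2, which already acts in S phase. Opposite-strand exons of other genes overlap 11.8% of CCNF, 9.71% of CDCA3, 9.08% of CCNA2 and 8.78% of CDC25C, and the strand setting of the counts is not given in the sources used here.

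FOXM1 is the transcription factor that drives many genes of this list, and the kinases PLK1, AURKA and NEK2 act at centrosomes and the spindle. All 6 members of this role were lower, 3 passed and all 6 passed with the block, with a median of -0.65. PLK1 (ENSG00000166851, chromosome 16, 23677656 to 23690367, plus strand) had 425, 350.2 and 340.3 CPM at 0 h, 399.5, 369.9 and 349 CPM at 8 h, and 262, 201 and 166 CPM at 24 h. All 24 h libraries were below all others, and PLK1 fell by 43.7% (log2 fold change -0.83, standard error 0.16, adjusted p = 0.0267). AURKA, Aurora kinase A, went from 345 ± 66.2 to 199 ± 42.4 CPM and NEK2 from 157 ± 8.71 to 98.0 ± 10.4 CPM (SD, n = 3), and NEK2 had the smallest adjusted p of all members (0.0167).

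FOXM1 itself just missed the threshold at an adjusted p of 0.0502, with a fold change of -0.62, and passed with the block. Its level was 588 ± 61.7 CPM at 0 h and 383 ± 83.8 CPM at 24 h, with no overlap. MELK, a kinase highly expressed in proliferating cells (ENSG00000165304, chromosome 9, 36572862 to 36677683, plus strand), moved least. It had 189, 158 and 150.4 CPM at 0 h, 180.1, 158 and 158 CPM at 8 h, and 154, 142 and 120.0 CPM at 24 h. The ranges of 0 h and 24 h overlapped, and the fold change of -0.26 (standard error 0.12) had an adjusted p of 0.208 without the block and 0.0380 with it. PBK, a mitotic kinase, had a fold change of -0.41 and also passed only with the block.

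The chromosomal passenger complex brings Aurora kinase B to centromeres and the midzone through INCENP, survivin (BIRC5) and borealin (CDCA8). All 4 subunits were lower, 1 passed and 3 passed with the block, with a median of -0.50. BIRC5 (ENSG00000089685, chromosome 17, 78214186 to 78225636, plus strand) had 699, 514 and 466 CPM at 0 h, 545, 520.0 and 496 CPM at 8 h, and 413, 320.1 and 279 CPM at 24 h. The 24 h libraries lay below the others, and BIRC5 fell by 39.7% (log2 fold change -0.73, standard error 0.17, adjusted p = 0.0396). This call was lost without any 1 of untreated replicates 1 and 2, the 8 h replicates 2 and 3 and the 24 h replicates 2 and 3, where the fold change ran from -0.79 to -0.56, and was kept with the block. INCENP, the scaffold (ENSG00000149503, chromosome 11, 62123973 to 62153163, plus strand), passed in neither fit. Its level was 161, 188 and 199 CPM at 0 h, 232, 198 and 190 CPM at 8 h, and 205, 165 and 137 CPM at 24 h. The groups overlapped, the fold change was -0.11 (standard error 0.15, adjusted p = 0.660), and without the 24 h replicate 3 it was 0.01. AURKB and CDCA8 passed only with the block, at -0.46 and -0.54, and in AURKB the groups overlapped.

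Genes of anaphase and mitotic exit had a median of -0.76 at 24 h against 0 h, in which untreated replicate 1 stood above its group, and of -0.62 at 24 h against 8 h, where FOXM1 and the kinases had -0.63. All 5 were lower with no overlap, 3 passed and all 5 passed with the block. UBE2C encodes the ubiquitin-conjugating enzyme of the anaphase-promoting complex (ENSG00000175063, chromosome 20, 45812576 to 45816957, plus strand). It had 583, 334 and 340.1 CPM at 0 h, 459.9, 328 and 362 CPM at 8 h, and 271, 212 and 182 CPM at 24 h. Untreated replicate 1 was far above its group, and without it the fold change went from -0.92 (standard error 0.23, adjusted p = 0.0455) to -0.62 (adjusted p = 0.0756). The call was also lost without the 8 h replicate 2 or 3 (0.0611 and 0.0643) or the 24 h replicate 2 or 3 (0.163 and 0.192), and was kept with the block. CDC20, the activator of the same complex, went from 494 ± 95.3 to 266 ± 53.2 CPM (SD, n = 3; adjusted p = 0.0267), and PTTG1, securin, from 231 ± 46.1 to 138 ± 20.5 CPM (adjusted p = 0.0269). ESPL1 encodes separase, the protease that securin restrains (ENSG00000135476, chromosome 12, 53268299 to 53293643, plus strand). It had 254, 244 and 249 CPM at 0 h, 324, 246 and 256 CPM at 8 h, and 231, 197 and 159.8 CPM at 24 h. Every 24 h library was below every untreated one, yet the fold change of -0.35 (standard error 0.14) passed only with the block (adjusted p 0.163 and 0.0271). UBE2S, which extends ubiquitin chains for the complex, also passed only with the block, at -0.76.

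The condensin subunits, TOP2A, MKI67 and HJURP shape chromosomes and centromeres. This role moved least, with a median of -0.19 at 24 h against 0 h and -0.27 at 24 h against 8 h. Untreated replicate 1 stood below the mean of replicates 2 and 3 in MKI67, SMC2, SMC4, TOP2A and NCAPD2. It stood above that mean in HJURP, NCAPG and NCAPH. At 24 h against 0 h all 8 were lower, none passed (1 had an unadjusted p under 0.05) and 2 passed with the block, HJURP and NCAPG. HJURP, the chaperone of centromeric histone CENP-A (ENSG00000123485, chromosome 2, 233833416 to 233854566, minus strand), had 358, 268 and 287 CPM at 0 h, 332, 274 and 289 CPM at 8 h, and 259, 221 and 178 CPM at 24 h. It was the 1 member of this role whose groups did not overlap, with a fold change of -0.47 (standard error 0.15, adjusted p 0.0957 without and 0.00499 with the block). SMC2, a core subunit of condensin (ENSG00000136824, chromosome 9, 104094260 to 104141417, plus strand), had the smallest fall of all members. It had 202, 249 and 243 CPM at 0 h, 260.0, 249 and 226 CPM at 8 h, and 244, 229 and 175 CPM at 24 h. The ranges overlapped, and the fold change was -0.10 (standard error 0.14, adjusted p = 0.669), and 0.03 without the 24 h replicate 3. TOP2A, topoisomerase II alpha, had 860 ± 66.4 CPM at 0 h and 740 ± 118 CPM at 24 h, and MKI67, the Ki-67 antigen, 714 ± 90.4 and 635 ± 169 CPM (SD, n = 3). Neither passed in either fit, at adjusted p of 0.329 and 0.632 without the block. NCAPD2, NCAPH and SMC4 had fold changes of -0.18, -0.20 and -0.13, and opposite-strand exons overlap 33.1% of NCAPG and 25.6% of SMC4.

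Of the cytokinesis genes all 5 were lower, 1 passed and 4 passed with the block, with a median of -0.50. CEP55 recruits the abscission machinery to the midbody (ENSG00000138180, chromosome 10, 93496632 to 93529092, plus strand). It had 252, 234 and 233 CPM at 0 h, 254, 236 and 231 CPM at 8 h, and 173, 152 and 124 CPM at 24 h. The untreated and 8 h libraries were tight and the 24 h ones clearly lower, and CEP55 fell by 37.5% (log2 fold change -0.68, standard error 0.12, adjusted p = 0.0224). ECT2, the exchange factor that activates RhoA at the cleavage furrow (ENSG00000114346, chromosome 3, 172750682 to 172821474, plus strand), had 185, 248 and 247 CPM at 0 h, 240.3, 248 and 241 CPM at 8 h, and 211, 180.1 and 149 CPM at 24 h. Untreated replicate 1 lay inside the 24 h range, and the fold change of -0.33 (standard error 0.14) passed in neither fit (adjusted p 0.176 and 0.0989). ANLN and RACGAP1 passed only with the block, at -0.50 and -0.44. PRC1, the midzone cross-linker, did so at -0.62 from only 13.7 ± 3.47 CPM, and exons of another gene on the same strand overlap 57.6% of it.

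The spindle genes were the largest role, with 12 of 13 lower, 8 called and 11 called with the block, and a median of -0.56. FAM83D recruits casein kinase 1 to the spindle (ENSG00000101447, chromosome 20, 38926312 to 38953106, plus strand). It had 314, 229.8 and 251 CPM at 0 h, 307, 244 and 244 CPM at 8 h, and 172, 145 and 124 CPM at 24 h. The 24 h libraries were far below the rest, and FAM83D fell by 44.5% (log2 fold change -0.85, standard error 0.16, adjusted p = 0.0251). Further spindle genes called were KPNA2, DLGAP5, TROAP, TPX2, GTSE1, HMMR and CKAP2, with fold changes from -0.75 in KPNA2 to -0.50 in CKAP2. TPX2, which activates Aurora kinase A on the spindle, went from 947 ± 100 to 619 ± 124 CPM (SD, n = 3; adjusted p = 0.0448). DLGAP5, which stabilises kinetochore fibres, went from 226 ± 4.55 to 143 ± 20.9 CPM (adjusted p = 0.0199). TACC3, PSRC1 and CKAP2L passed only with the block.

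ASPM, which works at spindle poles (ENSG00000066279, chromosome 1, 197084128 to 197146694, minus strand), had 328, 495 and 538 CPM at 0 h, 545, 476 and 468 CPM at 8 h, and 428, 402 and 291 CPM at 24 h. Its lowest untreated library lay below 2 of the 24 h libraries, and the fold change was -0.28 (standard error 0.19, adjusted p = 0.358 without and 0.277 with the block). NUSAP1, a microtubule-bundling protein (ENSG00000137804, chromosome 15, 41332694 to 41381050, plus strand), was the 1 member with a higher fitted level at 24 h. It had 0.189, 0.539 and 0.796 CPM at 0 h, 1.04, 0.525 and 0.468 CPM at 8 h, and 0.508, 0.777 and 0.332 CPM at 24 h. The groups overlapped throughout, the fold change was 0.06 (standard error 0.52, adjusted p = 0.945), and it was -0.32 without untreated replicate 1 and -0.30 without the 24 h replicate 2. Exons of another gene on the same strand overlap 62.2% of NUSAP1, so its count is uncertain.

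**Figure D3:**
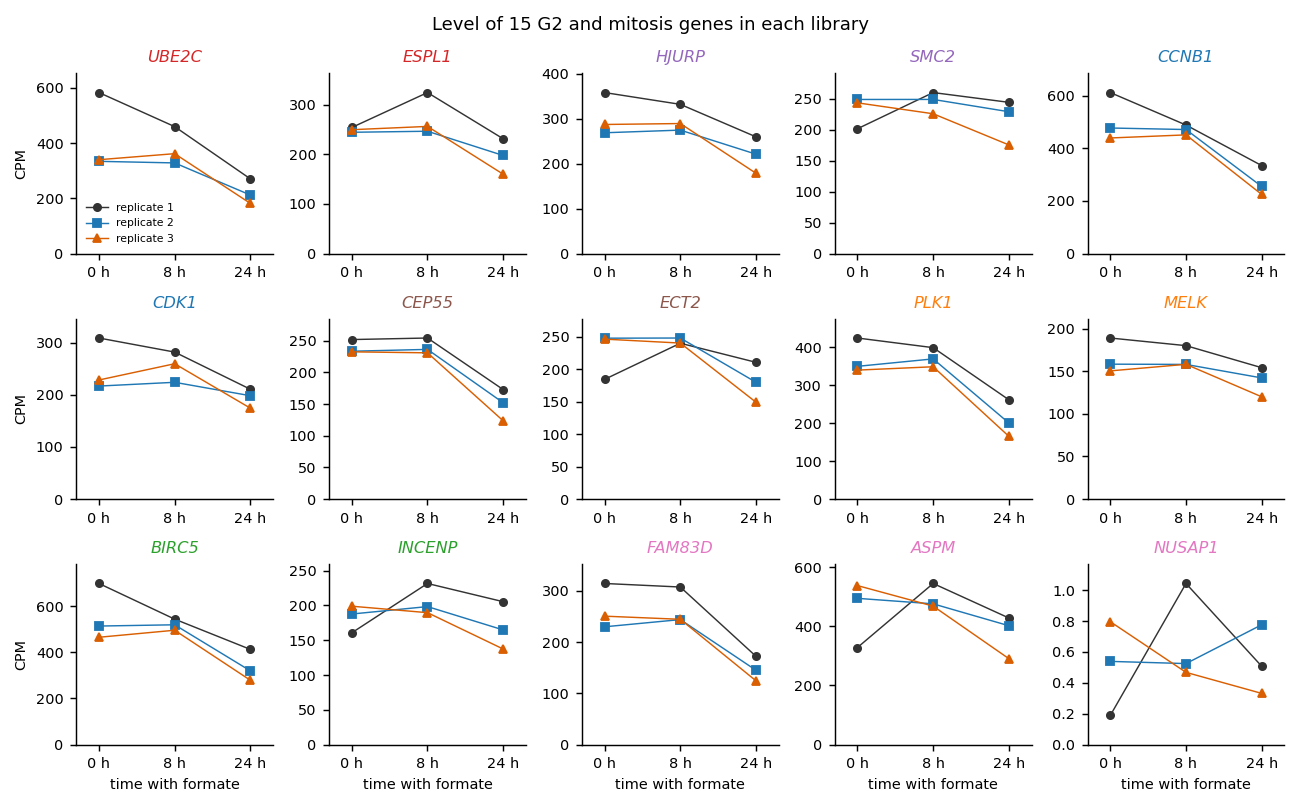
Level in CPM (y axis, from 0) of 15 members in every library at 0, 8 and 24 h (x axis), with 1 line per replicate number. The genes are the largest and smallest fall of each role and NUSAP1; CCNB1 goes from 439 to 612 CPM at 0 h to between 225 and 334 CPM at 24 h, while SMC2 overlaps between all times.

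At 8 h no member had moved past the test. No gene of the 15273 was called at 8 h against 0 h by edgeR's quasi-likelihood test (0% called lower and 0% higher), where 79 genes (0.327% of tested genes lower, 0.19% higher) and none of the 50 members had an unadjusted p under 0.05, and DESeq2 called none. The member median was -0.01, with a median standard error of 0.15, and the members ranged from -0.18 in UBE2S to 0.39 in NUSAP1. No member had groups without overlap, against 1.89% of tested genes lower and 1.43% higher. The shares with an unadjusted p under 0.05 are far below what that threshold gives when no gene changes. The p-values without the block thus ran high in this comparison, and the reason was not tested. A difference of the size of 1 standard error is not detectable with 3 libraries a group, so a small change at 8 h cannot be seen here.

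The comparison of 24 h with 8 h uses the same 24 h libraries as that with 0 h. All 50 members were lower at 24 h, with a median of -0.53 against 0.02 over all tested genes, and 16 were called lower, against 1.72% of tested genes (2.84% were called higher). Unadjusted p under 0.05 with a lower level was found in 39 members, against 9.34% of tested genes. In 42 members the groups did not overlap, against 16.2% of tested genes. CCNB1 was at -0.79 (adjusted p = 0.0266), PLK1 at -0.83 (0.0243), FAM83D at -0.85 (0.0228) and CEP55 at -0.69 (0.0217) on the log2 scale. BIRC5, CDKN3, KPNA2, TPX2 and UBE2C, called against 0 h, were at -0.62, -0.57, -0.69, -0.58 and -0.79 against 8 h, with adjusted p from 0.0506 to 0.0686. Without the 8 h replicate 1, the 8 h replicate 3, the 24 h replicate 2 or the 24 h replicate 3, no member was called, while 2078 to 3277 genes had an unadjusted p under 0.05. Without the 8 h replicate 2 there were 9 calls, without the 24 h replicate 1 there were 30 and without untreated replicate 1 there were 39. DESeq2 called 32, a fit of the 6 libraries alone 33 and the table without the filter on low counts 26. Over all tested genes, calls ranged from 0 to 2545 with 1 library left out and from 571 to 3130 under the other settings run.

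Among the members, the 24 h libraries differed from each other more than those of other times, while over all tested genes the untreated libraries differed most. The median coefficient of variation of the members was 17.0% at 24 h, 8.08% at 8 h and 12.6% at 0 h, against 10.3%, 9.77% and 15.5% over all tested genes. Replicate 1 was the highest of the 24 h libraries in 48 members and replicate 3 the lowest in 47, against 38.6% and 34.6% of all tested genes. Over all 9 libraries, the 24 h replicate 3 was the lowest in 46 members and untreated replicate 1 the highest in 29. In 41 members the 24 h library was below the untreated library of the same number in all 3 pairs, against 26.8% of tested genes. Correlations across the members of deviations from the group mean between same-numbered libraries of 0 h and 24 h were 0.323 for number 1, 0.535 for number 2 and -0.489 for number 3. Differently numbered libraries gave -0.781 to 0.832, the highest for the 24 h replicate 2 with untreated replicate 3. Between 0 h and 8 h the same-numbered values were -0.260, 0.485 and -0.329. Such correlations leave out any shift that all members share. Replicate 1 had the highest member sum in every group. It was the highest library in 33 members at 0 h and in 40 at 8 h, against 43.4% and 38.7% of all tested genes. The sum of replicate 2 was above that of replicate 3 at 8 h and 24 h but not at 0 h. The correlations therefore cannot decide whether the numbers pair these libraries among the members.

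Untreated replicate 1 differed from its group in a way that followed total exon length, as given here for description. Its level over the mean of replicates 2 and 3 had a rank correlation of -0.531 with total exon length across the 50 members and -0.337 across 15158 genes with a length, points that all come from the same 3 libraries. At 8 h and 24 h the same ratio of replicate 1 gave 0.108 and -0.097 across the members. The fold change at 24 h against 0 h had a rank correlation of 0.498 with exon length across members and 0.205 across all genes, and 0.287 and 0.077 without untreated replicate 1. At 24 h against 8 h, a fold change without the level of untreated replicate 1, the values were 0.341 and 0.087. UBE2C and CDC20, with short exon length, had large falls, and ASPM, MKI67 and SMC2, with long, small falls. Other members went the other way, such as MELK (3087 bases, -0.26) and CDCA3 (5653 bases, -0.77). The median of the members without untreated replicate 1 was -0.47, against -0.54 with it. What length contributed to the differences between members was not tested.

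**Figure D4:**
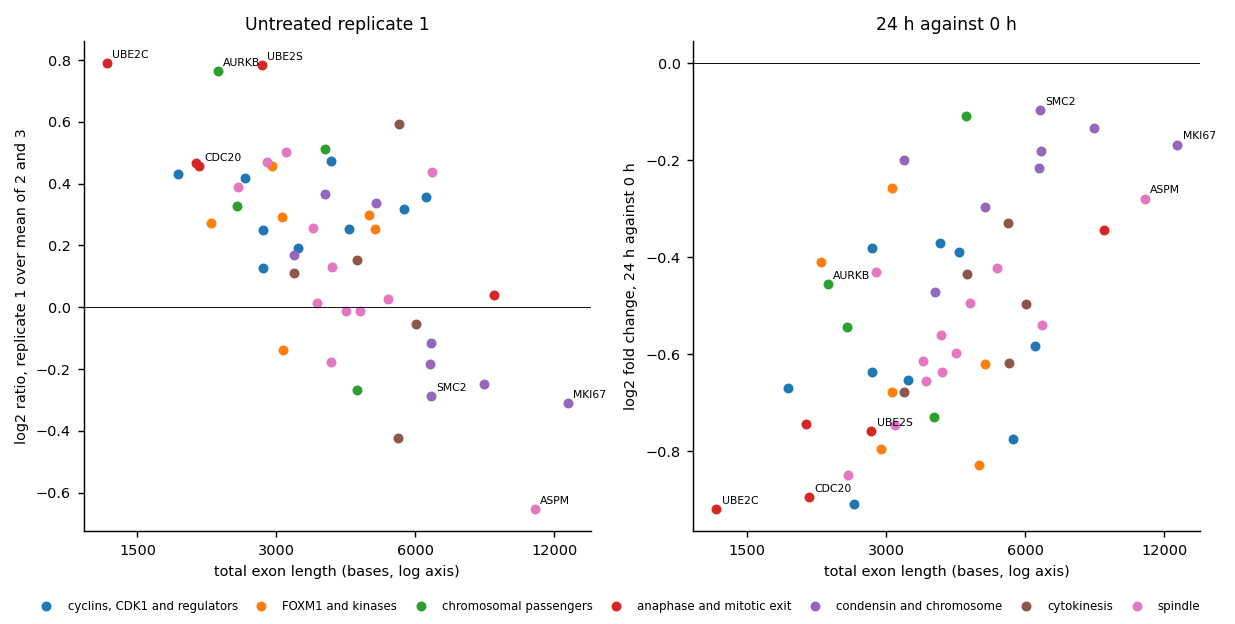
Total exon length in bases (x axis, log scale) of 49 members against the log2 ratio of untreated replicate 1 to the mean of replicates 2 and 3 (left) and the log2 fold change at 24 h against 0 h (right), coloured by role, without NUSAP1. UBE2C, with short exon length, stands high on the left and low on the right, and ASPM, with long, the reverse. The rank correlations over all 50 members are -0.531 and 0.498.

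Members can be compared with each other only per length, here as mean CPM per kilobase of exon at 0 h. The highest were UBE2C at 326 ± 110.5, KPNA2 at 294 ± 62.4, TPX2 at 263 ± 27.7, CDC20 at 242 ± 46.8 and CCNB1 at 199 ± 35.4 (SD, n = 3). The median member was at 59.6, and the lowest were CDC25C at 14.6, PRC1 at 2.48 and NUSAP1 at 0.177. Of the 49 pairs of neighbours in this order, 46 overlapped in their untreated libraries, so their order is not resolved. The pairs that did not overlap were CCNF above CDC25C, CDC25C above PRC1 and PRC1 above NUSAP1. Exons of another gene on the same strand overlap 57.6% of PRC1 and 62.2% of NUSAP1, so their low levels and places are uncertain. Pseudogene copies exist by name for 18 members, among them UBE2C with 5, NEK2 with 4 and KPNA2 with 3, and how reads were shared with them is not given in the sources used here.

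Lists of related genes were set beside the members. Of all tested genes, 1.77% were called lower and 2.47% higher, and 11.6% and 12.6% with the block. Among 12 mitotic kinesins, the motors of the spindle, 3 were called lower and none higher, with a median of -0.39, and 8 were called lower with the block. KIF20A, a motor needed for cytokinesis, had 486, 566 and 518 CPM at 0 h and 391, 363 and 283 CPM at 24 h (log2 fold change -0.60, adjusted p = 0.0329), and KIF18A and KIF4A were called at -0.50 and -0.56. Among 30 kinetochore and checkpoint genes, 3 were called lower and none higher, with a median of -0.34, and 18 with the block. CENPA, the centromeric histone, had 92.2, 65.6 and 68.5 CPM at 0 h and 49.9, 47.2 and 36.8 CPM at 24 h (-0.76, adjusted p = 0.0289), and SPAG5 and BUB1 were called at -0.62 and -0.52. Of 21 other regulators of G2 and mitosis, 2 were called lower and 1 higher, with a median of -0.14, and 6 lower and 1 higher with the block. The 1 higher call of 21 is not read as a trait of that list. The lower ones were KNSTRN, a kinetochore protein (-0.81), and CKS2, a CDK1 adaptor (-0.78). CDKN1A, the CDK inhibitor p21, was the higher one, with 108, 90.3 and 80.4 CPM at 0 h and 220, 134 and 135 CPM at 24 h (0.81, adjusted p = 0.0358).

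Genes of DNA replication act before G2. Of 36, none was called lower (none had an unadjusted p under 0.05 with a lower level) and 4 were called higher, with a median of 0.23, and 15 were called higher and 1 lower with the block, against 12.6% and 11.6% of all tested genes. CCNE2, cyclin E2 of the entry into S phase, had 24.3, 34.1 and 31.9 CPM at 0 h and 58.8, 53.7 and 46.8 CPM at 24 h, with no overlap (0.82, adjusted p = 0.0199). MCM6 of the replicative helicase was at 0.58 and UNG, which removes uracil from DNA, at 0.49. The summed replication list was 4211 to 5287 CPM at 0 h and 4521 to 5881 CPM at 24 h, ranges that overlap, while the member sum was lower in every 24 h library. Beside these lists, the 50 members had 21 of 50 called lower, and the share of all tested genes called lower was 1.77%. Whether the lists differ from each other was not tested.

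**Figure D5:**
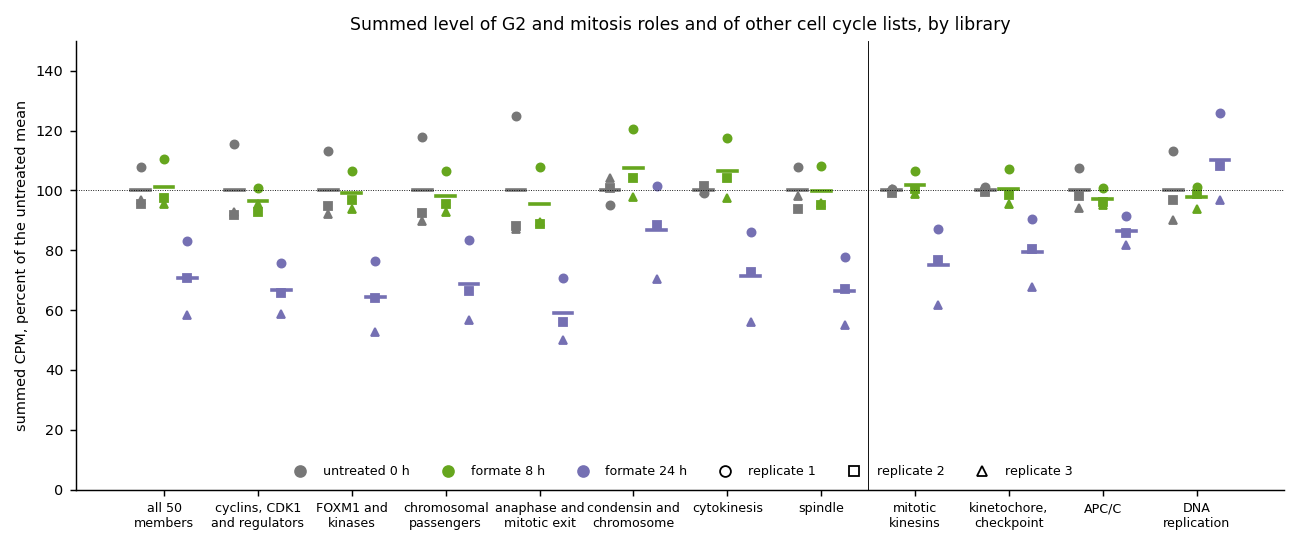
Summed CPM of the 50 members, of each role and of 4 other cell cycle lists in every library, as a percent of the untreated mean (y axis), with a short line at each group mean and symbols for the replicate numbers. The 50 members were at 70.8% ± 12.4 (SD, n = 3) of the untreated mean at 24 h, the condensin and chromosome role at 86.7% and DNA replication at 110%.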

How the data were processed

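The authors deposited 1 table of raw counts per Ensembl gene for 9 libraries. Per the labels' protocols, the library kit was a stranded one for mRNA. Per the submitters' processing notes, bcl2fastq 2.20.0.422, STAR 2.7.4a and GRCh38 were used; the counting program, annotation and strand setting are not given in the sources used here. Totals were 22222298 to 25848242 counts. From these, CPM were computed with TMM factors, and edgeR 4.0.16 (R 4.3.3; filterByExpr, 15273 genes, quasi-likelihood test, two-sided, Benjamini-Hochberg, threshold 0.05) was fitted with 3 group means over all 9 libraries, after a check on simulated data. Log2 fold changes are edgeR's fitted ones. DESeq2 1.42.0, other scalings, no filter, the replicate block and leaving out libraries were alternatives. The titles number the replicates 1 to 3 in every group. Deviations of same-numbered libraries from their group means correlated across genes at r = 0.367, 0.164 and 0.251 between 0 h and 24 h. Between 0 h and 8 h they did so at 0.476, 0.432 and 0.414. Differently numbered libraries gave -0.400 to 0.270 between 0 h and 24 h, the highest for the 24 h replicate 2 with untreated replicate 3. They gave -0.364 to 0.0108 between 0 h and 8 h. Between 8 h and 24 h same-numbered pairs were at 0.423, 0.0367 and 0.404, and differently numbered ones at -0.440 to 0.134. The block takes the numbers to pair all 3 groups, which between 24 h and either other time is an assumption. The main fit left the numbers out, and the block was fitted as an alternative over all 9 libraries. No 2 libraries of a group were the same within sampling noise. Gene positions and exon lengths came from GENCODE 29. Per role, the members with the largest and smallest fall and any with a rise were described in every library, and from each other list up to 3 genes with the smallest p were named. The members and lists were chosen with earlier results of these data known. Of 29 marker genes, 26 were matched; the others were not analysed here, and 1 result on markers is not reported here.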

Additional observations from a re-analysis of the deposited data

Results flagged for a closer look

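For 4 of the members described in every library the change at 24 h differed from the change at 8 h, both taken against 0 h. The test of this difference is the comparison of 24 h with 8 h, by edgeR's quasi-likelihood test with adjustment over all genes. Among all 50 members 16 passed it, so the 4 are not the only ones. Those described were picked by their change at 24 h against 0 h, which uses the same 24 h libraries. The difference was -0.793 on the log2 scale for CCNB1 (adjusted p = 0.0266), -0.686 for CEP55 (0.0217), -0.832 for PLK1 (0.0243) and -0.85 for FAM83D (0.0228). The other 11 members described in every library did not pass this test. All 4 lost the call without the 8 h replicate 1 or 3 or the 24 h replicate 2 or 3, with adjusted p from 0.0521 to 0.135, and CCNB1 also without the 8 h replicate 2 (0.0567). Each of the 4 was lower in all 3 libraries of 24 h than in all 3 of 8 h.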

How the results depend on the processing

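Member medians kept their sign and moved by less than the median standard error at 24 h against 0 h under all alternatives run, from -0.671 to -0.426 with 1 library left out and from -0.549 to -0.466 under the other settings. Counts of calls moved more. At 24 h against 0 h, 649 genes were called, 3687 with the replicate block, 124 in the fit of 6 libraries and 1656 by DESeq2; members called lower numbered 21, and 40, 3 and 33 in the same order. With 1 library left out, genes ranged from 0 to 899 and members from 0 to 29. At 24 h against 8 h, 696 genes and 16 members were called without the block. With the replicate block, whose pairing is an assumption there too, these were 3130 and 41. The fit of 6 libraries gave 1787 and 33, DESeq2 gave 1458 and 32, and no filter gave 26 members. With 1 library left out, genes ranged from 0 to 2545 and members from 0 to 39. Leaving out replicate 1 of every group, and the block together with any library left out, were chosen after seeing the data. The first gave 2616 genes and 43 members at 24 h against 0 h (3991 and 48 with the block), and 3072 and 45 at 24 h against 8 h (4477 and 48 with the block). With the block and in turn untreated replicates 1 to 3, 8 h replicates 1 to 3 and 24 h replicates 1 to 3 left out, genes called at 24 h against 0 h numbered 3816, 2339, 3815, 3404, 2933, 2746, 2213, 2518 and 2482, and members 49, 36, 36, 40, 39, 38, 37, 36 and 31. At 24 h against 8 h these were 5432, 2514, 3381, 2075, 1629, 1179, 2210, 2206 and 1846 genes and 49, 38, 45, 39, 34, 27, 38, 37 and 34 members. With matches counted only before the start, 48.8% of member promoters held both features (51.2% in the whole window).

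At 24 h against 0 h the sign changed for SMC2 without the 24 h replicate 3 (0.026; 0.024 with the block; lowest -0.205 over the libraries left out) and with the block without untreated replicate 3 (0.030), and for INCENP in the same settings (0.014, 0.014 and 0.035; lowest -0.274). For NUSAP1 it changed without untreated replicate 1 (-0.319; -0.513 with the block), without the 24 h replicate 2 (-0.297 and -0.380; highest 0.502) and without replicate 1 of every group (-0.260 and -0.260). At 24 h against 8 h NUSAP1 changed sign without the 8 h replicate 1 (0.095; 0.317 with the block; lowest -0.694) and without replicate 1 of every group (0.151 and 0.145). The cause was not tested. The depth gives fewer than 30 counts per library for NUSAP1, which limits its precision. At 8 h against 0 h no gene was called in any setting run.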

Other observations

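Other parts of the cell cycle machinery were measured beside the members at 24 h against 0 h, by edgeR's quasi-likelihood test. Of all tested genes, 12.6% were lower and 13.7% higher with an unadjusted p under 0.05, and 11.6% were called lower and 12.6% higher with the replicate block. Of 15 genes of the anaphase-promoting complex, none was called (4 had an unadjusted p under 0.05, all lower) and 3 were called lower with the replicate block, with a median of -0.15. FZR1, the activator that takes over from CDC20 late in mitosis, had 116, 75.2 and 77.9 CPM at 0 h and 65.8, 49.4 and 49.3 CPM at 24 h (log2 fold change -0.71, adjusted p = 0.0576, and 0.000283 with the block). ANAPC7 and CDC16, structural subunits, were at -0.42 and -0.26.

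The counts of the next lists are near those shares or rest on a few genes. Of 13 cohesin and condensin II genes, none was called (2 lower and 2 higher had an unadjusted p under 0.05) and 3 were called lower with the block, with a median of -0.04. SGO1, which protects cohesin at centromeres, was at -0.33, while NCAPD3 was at 0.30 and NCAPG2 at -0.30, both subunits of condensin II. Of 15 genes for MuvB, DREAM and NF-Y subunits, none was called (1 lower and 3 higher had an unadjusted p under 0.05), and 2 were called lower and 1 higher with the block, with a median of -0.05. TFDP2, a partner of E2F factors, had 25.9, 26.2 and 25.5 CPM at 0 h and 31.7, 33.6 and 33.2 CPM at 24 h, with no overlap (0.34, adjusted p = 0.0558, and 0.0125 with the block). E2F5 and RBBP4 were at -0.60 and 0.21.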
